A study of Mus musculus with 8 samples.

Results

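The genes described here make hyaluronan, break it down or fix it to the surrounding matrix. They were chosen by name and by no cut on a measured value, though earlier results of these data were known. They are the synthases HAS1, HAS2 and HAS3, the hyaluronidases HYAL1 and HYAL2, and the link proteins HAPLN1 and HAPLN3. Of these 7 genes, 4 (HAS2, HYAL1, HYAL2 and HAPLN1) are among the 13937 genes of the deposited count table, and all 4 were among the 13509 genes tested. The other 3 (HAS1, HAS3 and HAPLN3) were found in a second deposited table, of FPKM (fragments per kilobase of transcript and 1e+06 fragments, a level corrected for length).

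Bulk RNA was sequenced from cultured brain astrocytes of C57BL/6 mice aged 1 day, either wild type (WT) or lacking RGC-32 (KO), a mediator of TGF-β signaling encoded by the gene RGCC. Each genotype was left untreated or received TGF-β at 10 ng/ml for 24 h after overnight serum starvation, and each of the resulting 4 groups (WT control and WT TGF-β, KO control and KO TGF-β) had 2 biological replicates. The astrocytes of all groups had been grown for weeks in medium with fetal bovine serum and freed of loosely attached cells by shaking. The question was whether the response to TGF-β depends on RGC-32.

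Hyaluronan is a long, unbranched sugar polymer that synthases in the plasma membrane extrude into the extracellular space, where it forms the scaffold of brain matrix. Hyaluronidases cut it, HYAL2 at the cell surface and HYAL1 in lysosomes, and link proteins clamp it to proteoglycans of the lectican family such as versican and brevican. Astrocytes are a source of hyaluronan in the brain, and hyaluronan accumulates in glial scars.

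The count libraries held 14920561 to 18956038 reads on genes, and replicates varied beyond counting error (chi-square per degree of freedom, 6.27 to 10.4). The targeted gene RGCC had 80 and 94 counts in WT control, 215 and 362 in WT TGF-β, 61 and 28 in KO control, and 64 and 26 in KO TGF-β. RGCC was therefore still read in the KO libraries, below every WT library, and a count per gene does not show which exons the reads came from. WT exceeded KO on the log2 scale by 0.97 without TGF-β (adjusted p = 0.78, edgeR) and by 2.54 with it (adjusted p = 0.133). Neither adjusted p was below 0.05, though RGCC is the targeted gene. The absence of a call between genotypes is thus weak evidence that a level was the same. All 10 astrocyte markers were in the table, and their summed level was 4400 to 4630 CPM (counts per 1e+06) in WT control, 3440 to 3560 in WT TGF-β, 5070 to 5780 in KO control and 4260 to 4550 in KO TGF-β.

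Both hyaluronidase genes lie on mouse chromosome 9 (GRCm38), in the same direction. Hyal2 (ENSMUSG00000010047) spans 107567945 to 107572779 and Hyal1 (ENSMUSG00000010051) spans 107576927 to 107581710, with 4147 bases between them. Their promoters are shown because the neighbouring genes were read at similar levels and gave different calls after TGF-β, below. Each sequence is the RefSeq plus strand (GRCm38.p6), from 250 bases before the RefSeq start of the gene to 50 bases after it (both RefSeq starts lie within the GENCODE spans just given), and capitals mark CAGAC or its reverse complement GTCTG, the core letters of SMAD-binding sites.
Hyal1, chr9:107576700-107576999: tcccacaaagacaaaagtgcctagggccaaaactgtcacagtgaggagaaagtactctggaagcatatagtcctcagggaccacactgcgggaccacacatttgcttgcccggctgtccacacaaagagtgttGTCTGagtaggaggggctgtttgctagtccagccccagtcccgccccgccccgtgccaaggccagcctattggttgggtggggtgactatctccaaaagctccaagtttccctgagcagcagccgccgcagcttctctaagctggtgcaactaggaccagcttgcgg
Hyal2, chr9:107568913-107569212: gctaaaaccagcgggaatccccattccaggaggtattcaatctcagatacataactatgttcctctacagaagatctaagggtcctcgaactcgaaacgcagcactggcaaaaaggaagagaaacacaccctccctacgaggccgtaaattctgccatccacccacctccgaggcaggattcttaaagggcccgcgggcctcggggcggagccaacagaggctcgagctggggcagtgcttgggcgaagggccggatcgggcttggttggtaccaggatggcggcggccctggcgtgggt
The Hyal1 promoter held 1 match, on the minus strand with its first base 117 bases before the start, and the Hyal2 promoter held 0. CAGAC was found on either strand in 49.5% of 32544 promoters of this length, so a single match is common. The AP-1 motif TGANTCA, which shares no base with these matches, had 0 matches in both, against 7.79% of all promoters. Promoter sequences were at hand for 5 of the 7 genes. Among these 5, Hapln1 and Hapln3 also held 1 CAGAC match each and Has1 held 2. HAPLN1 and HAPLN3 gave no call after TGF-β, below. A tie between the motif and the response was not tested. Has2 and Has3 are the genes without one.

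HAS2, the best expressed synthase of these cells, rose with TGF-β in both genotypes. HAS2 (ENSMUSG00000022367, chromosome 15, 56665627 to 56694539, minus strand) was counted at 5.93 and 8.06 CPM in WT control and at 29.4 and 33.4 CPM in WT TGF-β. It was counted at 7.78 and 7.22 CPM in KO control and at 29.0 and 26.6 CPM in KO TGF-β. Every TGF-β library stood far above every control library, whichever the genotype. A gene is said to have risen or fallen, or to be past the threshold, where its log2 fold change was at least 0.6 in size with a p below 0.05 after Benjamini-Hochberg adjustment over all genes tested. The fitted level rose 4.46-fold in WT (log2 fold change 2.16 ± 0.14 SE, adjusted p = 0.000124, edgeR quasi-likelihood test) and 3.70-fold in KO (1.89 ± 0.14, adjusted p = 0.000208). The underlying counts were 92, 135, 531 and 522 in the WT libraries and 122, 122, 433 and 402 in the KO libraries, controls first.

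The test of a different response between genotypes gave no call for HAS2. The WT effect minus the KO effect was 0.27 on the log2 scale (95% interval -0.21 to 0.75, unadjusted p = 0.229 in edgeR, adjusted p = 1), an interval that leaves room for a WT effect larger by up to 0.75. HAS2 also gave no call between WT and KO, with a WT minus KO difference of -0.10 without TGF-β (adjusted p = 0.951) and 0.17 with it (adjusted p = 0.643).

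Part of the HAS2 transcript is also covered by HAS2OS, a noncoding RNA from the opposite strand, which shares 182 exonic bases with HAS2 (4.3% of its exonic length). The libraries were unstranded, so reads from the shared stretch cannot be assigned to a strand. HAS2OS was counted at 21 to 27 reads in the 4 control libraries and 65 to 80 in the 4 TGF-β libraries, without overlap. Its log2 fold change was 1.74 in WT (adjusted p = 0.000895, edgeR) and 1.43 in KO (adjusted p = 0.00236).

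**Figure D1:**
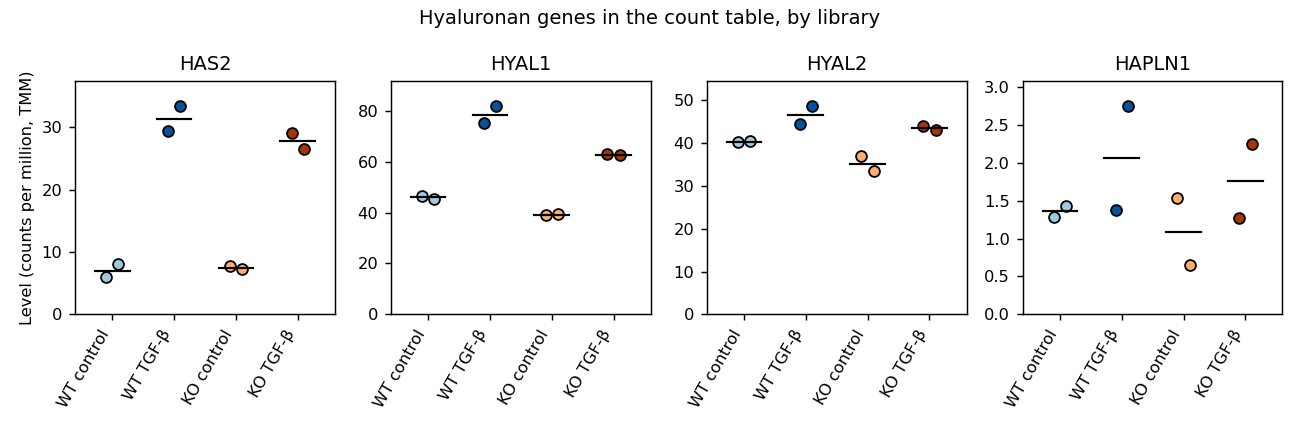
Level of HAS2, HYAL1, HYAL2 and HAPLN1 in each of the 8 libraries, in counts per 1e+06 after TMM scaling, with a line at the mean of the 2 libraries in a group. The TGF-β libraries lie above all controls for HAS2 (26.6 to 33.4 against 5.93 to 8.06) and HYAL1 (62.6 to 81.9 against 39.1 to 46.6), by less for HYAL2, and overlap the controls for HAPLN1.

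Of the other synthases, HAS1 (ENSMUSG00000003665, chromosome 17, 17843323 to 17855205) and HAS3 (ENSMUSG00000031910, chromosome 8, 106870242 to 106884566) were scarce. HAS1 was listed at 0.00603 and 0.00505 FPKM in WT control, 0.109 and 0.143 in WT TGF-β, 0.00603 and 0.0337 in KO control, and 0.111 and 0.0488 in KO TGF-β. All 4 TGF-β libraries were above all 4 controls, with the lowest TGF-β value, 0.0488, close to the highest control value, 0.0337. HAS3 was listed at 0.109 and 0.127 FPKM in WT control, 0.134 and 0.0947 in WT TGF-β, 0.0612 and 0.143 in KO control, and 0.111 and 0.0872 in KO TGF-β, so its groups overlapped. HAS3 shares 352 exonic bases (5.52% of its exonic length) with Chtf8, a protein-coding gene on the opposite strand. In these unstranded libraries, reads from that stretch cannot be assigned to a strand.

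These low FPKM values need care. The HAS1 value of 0.00603 was identical in the first control library of WT and of KO. Over the 18643 gene names of that table, any pair of libraries with the same replicate number shared 773 to 873 identical values above 0, and any pair with different numbers shared 0. No source used here states a step that would give such values. The reads behind these values are unknown, and a p-value from this table assumes libraries that vary independently.

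On log2(FPKM + 0.1), HAS1 was higher with TGF-β by 1.09 in WT (adjusted p = 0.00862, limma) and by 0.57 in KO (adjusted p = 0.0716), so that it passed in WT alone. Over the whole FPKM table, 4.22% of genes passed upward in WT and 3.94% in KO. The difference between these HAS1 responses was 0.52 (unadjusted p = 0.112, adjusted p = 1), which did not pass. With a pseudocount of 1, the HAS1 value fell under the fold limit in WT as well (0.16, adjusted p = 0.0128). HAS3 was at -0.03 in WT (adjusted p = 0.961) and 0.01 in KO (adjusted p = 1).

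HAS2 made up 89.4% to 95.5% of the summed FPKM of the 3 synthases in the control libraries and 96.0% to 97.2% in the TGF-β libraries. HAS3 supplied 4.13% to 8.59% in controls and 1.55% to 2.20% after TGF-β, while HAS1 stayed at 2.34% or less in every library.

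HYAL1, which degrades hyaluronan fragments in lysosomes, rose in both genotypes by less than HAS2. It was counted at 46.6 and 45.3 CPM in WT control, 75.1 and 81.9 in WT TGF-β, 39.1 and 39.3 in KO control, and 63.0 and 62.6 in KO TGF-β. The replicates of each group lay close together, and the TGF-β and control libraries did not overlap. HYAL1 rose 1.71-fold in WT (log2 fold change 0.77 ± 0.06 SE, adjusted p = 0.000208, edgeR) and 1.60-fold in KO (0.68 ± 0.06, adjusted p = 0.000401). On FPKM the difference was under the fold limit of 0.6 in both genotypes (0.55 in WT and 0.53 in KO with a pseudocount of 0.1), and with upper quartile scaling it was 0.60 in KO, just short of that limit.

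HYAL1 overlaps other genes. Naa80 (NAT6 in the count table), an acetyltransferase gene on the same strand, covers 1920 of its exonic bases (50.8%), and HYAL3 covers 159 (4.21%). How reads in shared exons were assigned is not given in the sources used here. NAT6 itself gave no call, with a log2 fold change of 0.23 in WT (adjusted p = 0.186, edgeR) and 0.27 in KO (adjusted p = 0.131).

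For HYAL1, both WT libraries were above both KO libraries at each treatment. WT exceeded KO by 0.23 on the log2 scale without TGF-β (unadjusted p = 0.00664 in edgeR, adjusted p = 0.524) and by 0.32 with it (unadjusted p = 0.000754, adjusted p = 0.131), neither of which passed. Under 22 alternative settings the difference with TGF-β kept its sign, at 0.24 to 0.39, always below the fold limit. The responses of both genotypes differed by 0.09 (95% interval -0.11 to 0.29, adjusted p = 1).

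HYAL2, the hyaluronidase anchored at the cell surface, moved little. It was counted at 40.1 and 40.4 CPM in WT control, 44.3 and 48.6 in WT TGF-β, 36.9 and 33.5 in KO control, and 44.0 and 42.9 in KO TGF-β. All TGF-β libraries were above all controls, the closest being 42.9 and 40.4, whereas as FPKM the WT groups overlapped (20.1 and 21.1 in control, 20.4 and 21.8 with TGF-β). Its log2 fold change was 0.21 ± 0.07 SE in WT (adjusted p = 0.0616, edgeR) and 0.30 ± 0.07 in KO (adjusted p = 0.0191), below the fold limit in each. Between genotypes, both WT libraries were again above both KO libraries, narrowly after TGF-β (44.3 against 44.0), and the WT minus KO difference was 0.19 without TGF-β (adjusted p = 0.691) and 0.10 with it (adjusted p = 0.654). The difference between the responses was -0.10 (95% interval -0.34 to 0.14, adjusted p = 1).

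The link protein genes were near the lower end of detection. HAPLN1 (ENSMUSG00000021613, chromosome 13, 89539796 to 89611652), which locks hyaluronan to lecticans, had 20 and 24 counts in WT control, 25 and 43 in WT TGF-β, 24 and 11 in KO control, and 19 and 34 in KO TGF-β. Scaled to CPM, its TGF-β and control libraries overlapped in both genotypes. Its log2 fold change was 0.58 ± 0.47 SE in WT (adjusted p = 0.383, edgeR) and 0.70 ± 0.51 in KO (adjusted p = 0.336), with 95% intervals of -0.52 to 1.67 and -0.48 to 1.88 that neither show a change nor set a narrow limit on one. Single libraries moved these values widely. The WT value was 0.0042 without the second WT TGF-β library and 1.02 without the first, and the KO value was 1.41 without the first KO control library, 0.20 without the second, 1.05 without the first KO TGF-β library and 0.21 without the second. HAPLN3 (ENSMUSG00000030606, chromosome 7, 79115102 to 79131018) was listed at 0.185 and 0.244 FPKM in WT control, 0.282 and 0.297 in WT TGF-β, 0.209 and 0.103 in KO control, and 0.246 and 0.270 in KO TGF-β. Its TGF-β libraries stood above its controls by a small margin, 0.246 against 0.244 at the closest, and on log2(FPKM + 0.1) it was at 0.32 in WT (adjusted p = 0.306, limma) and 0.51 in KO (adjusted p = 0.119).

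Of the 4 hyaluronan genes tested, 2 (HAS2 and HYAL1) were past the threshold upward after TGF-β in WT and 2 in KO, and 0 downward in either. Over all genes tested, 7.72% passed upward and 5.65% downward in WT, and 6.61% upward and 4.93% downward in KO. Between the responses of the genotypes 0 of the 4 passed, beside 0% of all genes tested. At an unadjusted p under 0.05, edgeR gave 0 of the 4 there, beside 381 of all genes (2.82%). The same test in DESeq2 also called 0 genes, with 76 at an unadjusted p under 0.05. WT against KO called 0 of the 4 without TGF-β, against 0.037% of all genes, and 0 with it, against 0.0444%. Before adjustment, 2 of the 4 were under 0.05 in edgeR without TGF-β (HYAL1 and HYAL2) and 1 with it (HYAL1), beside 6.84% and 11.7% of all genes. DESeq2 on 8 libraries called 0 of the 4 in each, and over all genes 7 up and 6 down without TGF-β and 22 up and 12 down with it. In bulk libraries, a change in the RNA per cell and in the number of cells of a type cannot be told apart.

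**Figure D2:**
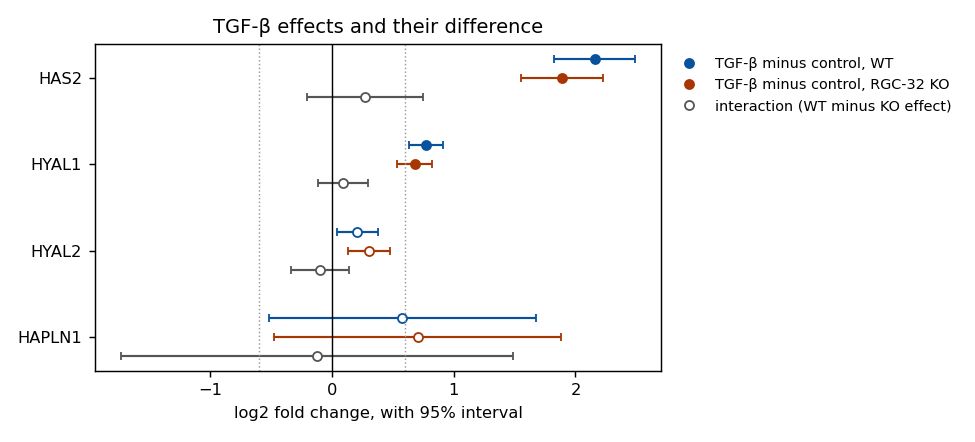
Log2 fold change with its 95% interval for TGF-β against control in WT and in KO, and for the difference between both (WT minus KO). Filled points passed the threshold and open points did not, with dotted lines at -0.6 and 0.6, and every interval of the difference contains 0, from 0.27 for HAS2 to -0.13 for HAPLN1.

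Compared per length, the hyaluronidases were the best expressed of the 7 genes and the link proteins, HAS1 and HAS3 the least. In WT control, HYAL2 (mean 20.6 FPKM) stood above HYAL1 (17.5), followed by HAS2 (1.47), HAPLN3 (0.214), HAPLN1 (0.207), HAS3 (0.118) and HAS1 (0.00554). HAPLN3 and HAPLN1 overlapped in their 2 libraries, and the other neighbours in this order did not. With TGF-β, HYAL1 (25.8) stood above HYAL2 (21.1) in WT, while in KO TGF-β their libraries overlapped (21.7 and 21.1). The ratio of HYAL2 to HYAL1 was 1.15 to 1.30 in the 4 control libraries and 0.782 to 1.02 in the 4 TGF-β libraries. HAS2 reached 5.86 and 5.87 FPKM in WT TGF-β and 5.91 and 4.67 in KO TGF-β, still below both hyaluronidases.

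**Figure D3:**
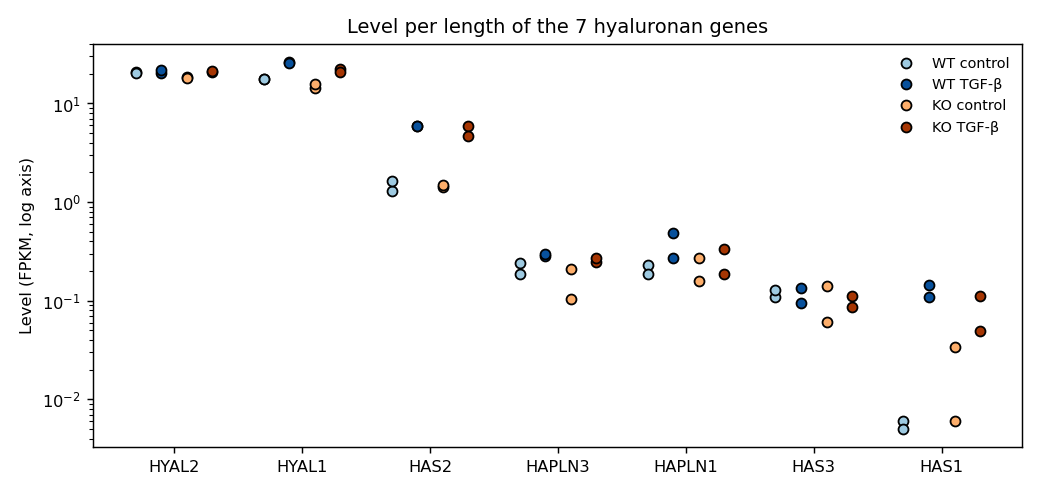
FPKM of the 7 genes in each of the 8 libraries, on a log axis, in the order of their WT control means. Levels run from about 20.6 for HYAL2 to 0.00554 for HAS1 in WT control, and HAS2 goes from 1.30 to 1.65 in the control libraries to 4.67 to 5.91 in the TGF-β libraries.

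The enzymes and partners that hyaluronan needs were followed in a list of 33 further genes, of which 26 were in the count table and were tested. In WT, 4 of the 26 rose and 1 fell, and in KO 7 rose and 1 fell. Over all genes tested, 7.72% rose and 5.65% fell in WT, and 6.61% rose and 4.93% fell in KO. The median log2 fold change of the 26 was 0.185 in WT and 0.266 in KO, beside -0.00479 and 0.00311 over all genes tested.

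Among the 7 genes that supply the UDP-sugars from which hyaluronan is built, 3 rose in both genotypes and 0 fell. Of all genes tested, 7.72% rose in WT and 6.61% in KO. GFPT2 and GFPT1, which catalyse the entry step of the hexosamine pathway toward UDP-N-acetylglucosamine, and PGM3, a later step of it, were the 3. GFPT2 was counted at 9.48 and 13.6 CPM in WT control, 41.0 and 46.9 in WT TGF-β, 10.8 and 10.8 in KO control, and 39.8 and 37.2 in KO TGF-β, a log2 fold change of 1.93 in WT (adjusted p = 0.000182, edgeR) and 1.84 in KO (adjusted p = 0.000279). Its TGF-β and control libraries were far apart. GFPT1 rose by 0.74 on the log2 scale in WT (adjusted p = 0.000209) and 0.71 in KO (adjusted p = 0.000282), and PGM3 by 0.69 (adjusted p = 0.000436) and 0.62 (adjusted p = 0.000811). On FPKM the differences of GFPT1 and PGM3 were under the fold limit in both genotypes, and without the first KO control library that of PGM3 in KO was 0.59, as it was 0.54 with upper quartile scaling. UGDH, which makes the other precursor, UDP-glucuronic acid, was at 0.11 in WT (adjusted p = 0.134) and 0.22 in KO (adjusted p = 0.0151), and UGP2 at -0.12 and -0.07 (adjusted p = 0.252 and 0.51).

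Of the 5 lecticans and other link proteins tested, versican (VCAN) rose and brevican (BCAN) fell in both genotypes. VCAN was counted at 55.8 and 61.6 CPM in WT control, 224 and 228 in WT TGF-β, 38.1 and 52.3 in KO control, and 142 and 145 in KO TGF-β. The WT TGF-β libraries were the highest and the KO TGF-β libraries next, with no overlap between any of the 4 groups. Its log2 fold change was 1.95 in WT (adjusted p = 0.000122, edgeR) and 1.67 in KO (adjusted p = 0.000213). The difference between these was 0.28 (95% interval -0.13 to 0.69, adjusted p = 1). WT exceeded KO after TGF-β by 0.65 (unadjusted p = 0.000709, adjusted p = 0.129), which did not pass in edgeR. The paper of these data, using DESeq2, lists VCAN among the genes significantly higher in WT than in KO after TGF-β. By real-time PCR, the paper found VCAN higher in WT without statistical significance. The DESeq2 result for VCAN in this comparison was not examined here.

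BCAN, the lectican most restricted to the brain, was counted at 50.8 and 69.1 CPM in WT control, 33.5 and 37.7 in WT TGF-β, 67.8 and 65.0 in KO control, and 42.9 and 43.2 in KO TGF-β. It fell by 0.76 on the log2 scale in WT (adjusted p = 0.00468, edgeR) and fell by 0.62 in KO (adjusted p = 0.0113). The WT call was lost without the second WT control library (-0.53), and the KO call without either KO TGF-β library (adjusted p = 0.0613 and 0.0573). Aggrecan (ACAN) had 64 and 0 counts in WT control, 150 and 427 in WT TGF-β, 66 and 0 in KO control, and 84 and 161 in KO TGF-β. The second library of each control group was thus at 0 for ACAN, and it gave no call (adjusted p = 0.0779 in WT and 0.271 in KO).

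Another 3 genes were past the threshold in KO and not in WT, namely TNFAIP6, which transfers protein heavy chains onto hyaluronan, ITIH3, a gene for such a heavy chain, and HAPLN4, a link protein of perineuronal matrix. TNFAIP6 was at 0.44 in WT (adjusted p = 0.0601, edgeR) and 0.95 in KO (adjusted p = 0.00491), ITIH3 at 0.45 (adjusted p = 0.0402) and 0.72 (adjusted p = 0.0079), and HAPLN4 at 0.70 (adjusted p = 0.173) and 1.37 (adjusted p = 0.0263). The difference between the genotypes' responses was -0.51 for TNFAIP6, -0.27 for ITIH3 and -0.67 for HAPLN4, each with an adjusted p of 1, so no difference between genotypes was shown. HAPLN4 rested on 10 to 37 counts a library. Its KO call was lost without any one of the 4 KO libraries (adjusted p 0.0622 to 0.145), in DESeq2 (adjusted p = 0.0997) and with the replicate number as a block (adjusted p = 0.0515). The ITIH3 call was lost without the second KO control library (adjusted p = 0.0506) or the second KO TGF-β library (0.46), and the TNFAIP6 call in DESeq2 on the 4 KO libraries (adjusted p = 0.0557).

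None of the 4 receptors and none of the 5 other breakdown genes tested passed in either genotype. CD44, the principal hyaluronan receptor, was at 0.37 in WT (adjusted p = 0.0273, edgeR) and 0.37 in KO (adjusted p = 0.0313), under the fold limit, and the receptor LAYN at -0.43 (adjusted p = 0.0154) and -0.39 (adjusted p = 0.0262). TMEM2, a cell-surface protein tied to hyaluronan breakdown, was at 0.54 (adjusted p = 0.000656) and 0.48 (adjusted p = 0.00135), and CEMIP, which is needed for hyaluronan breakdown by fibroblasts, at 0.15 (adjusted p = 0.445) and 0.04 (adjusted p = 0.839).

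**Figure D4:**
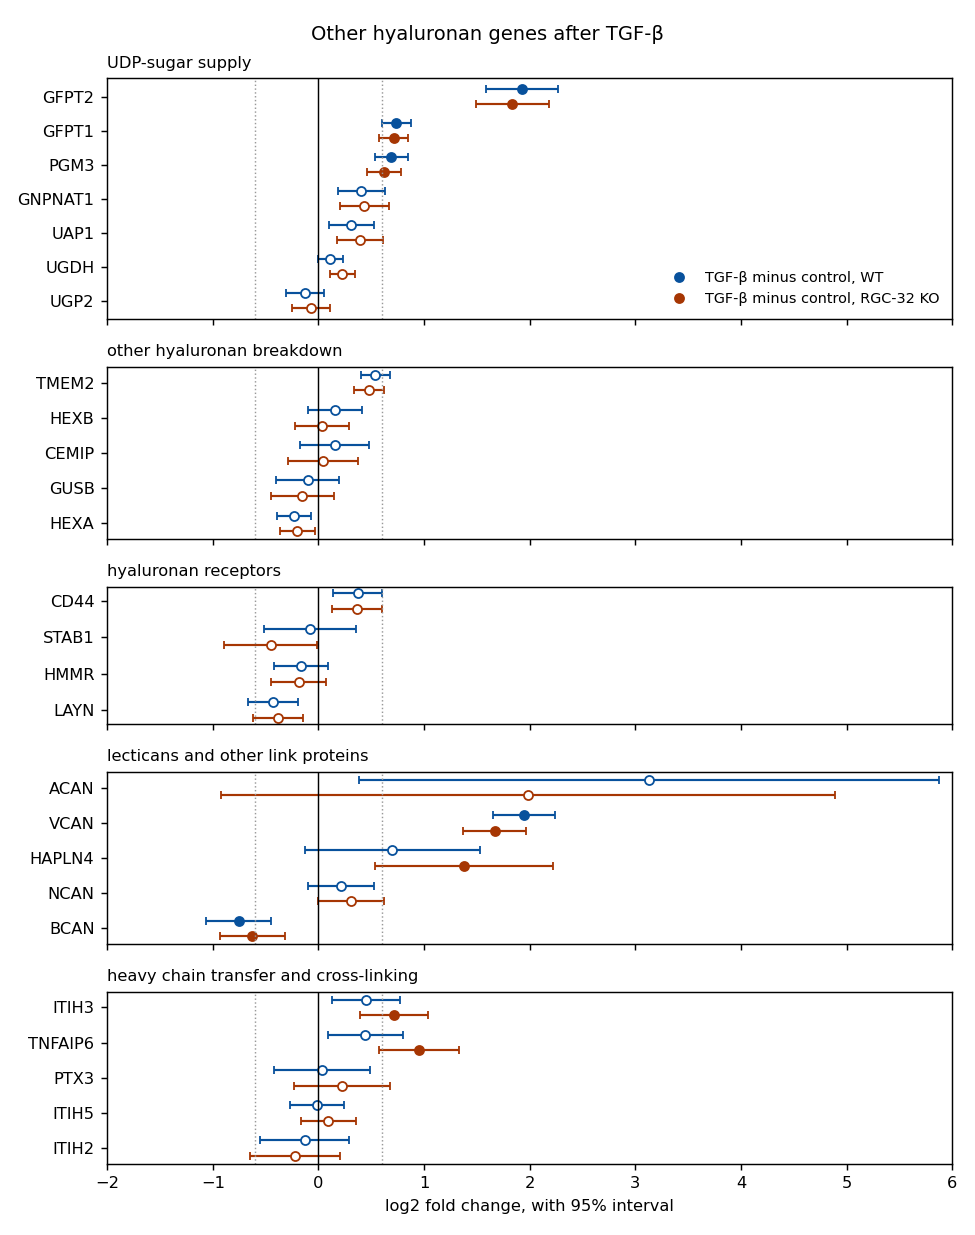
Log2 fold change with its 95% interval for TGF-β against control in WT and in KO, for the 26 further hyaluronan genes tested, grouped by role. Filled points passed the threshold, with dotted lines at -0.6 and 0.6, and GFPT2 and VCAN stand furthest out among them, at 1.93 and 1.95 in WT.

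The genes most like HAS2 across the 8 libraries, by Pearson correlation of log2 CPM among 13508 others, were VEGFA (0.998), SLC7A6 (0.998) and GFPT2 (0.997). Those most like HYAL1 were UGGT1 (0.997), FOXP1 (0.995) and PCGF3 (0.995). These 8 libraries form only 4 groups and share one normalization, so the values are a description of how alike the patterns are.

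Some markers of other cell types moved with TGF-β as well, in cultures made after the meninges had been taken off. The paper reports that nearly all of the isolated cells were positive for GFAP, an astrocyte marker. Of 12 meningeal fibroblast markers, 10 were in the table (all but DPT and SLC22A6), and their summed level was 5600 to 7050 CPM in WT control, 10200 to 11600 in WT TGF-β, 4730 to 4850 in KO control and 7930 to 7980 in KO TGF-β. The collagen genes COL1A1 and COL1A2 rose in both genotypes while the fibroblast markers DCN and OGN fell in WT, and the median log2 fold change of the 10 was -0.136 in WT and -0.0839 in KO. All 6 ependymal markers in the table (of 7) fell in WT and 3 in KO. The others, FOXJ1 (-0.53), RSPH1 (-0.42) and PIFO (-0.57), missed only the fold limit in KO (adjusted p = 0.00643, 0.0342 and 0.0154, edgeR). Between the responses of the genotypes, 0 of the 6 passed. The ependymal sum went from 376 to 440 CPM in WT control to 234 to 265 in WT TGF-β. In KO it went from 404 to 451 CPM in control to 285 to 296 with TGF-β. Of the 12 microglial or macrophage markers 1 rose in each genotype, of 8 in the oligodendrocyte lineage 1 rose and 2 fell in WT and 2 rose and 2 fell in KO, of 5 endothelial markers 1 fell in WT and 2 in KO, and of 5 neuronal markers 1 rose in each. Of the 10 astrocyte markers 2 fell in WT and 1 in KO, with medians of -0.393 and -0.396. Beside these counts, 7.72% of all genes tested rose and 5.65% fell in WT, and 6.61% rose and 4.93% fell in KO. A single call in a short list is thus little to go by. The part of these cell types in the changes of HAS2, HYAL1 and VCAN was not tested.

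HYAL1 and VCAN were higher in WT than in KO without passing in edgeR, and several marker lists leaned to one genotype as well. In every list, 0 markers were past the threshold between WT and KO. Without TGF-β, 10 of the 10 fibroblast markers were higher in WT than in KO (median log2 difference 0.373), and with TGF-β 9 of 10 were (0.271). Of the astrocyte markers, 8 of 10 were lower in WT without TGF-β (median -0.215) and 9 of 10 with it (-0.211). Over all genes tested the median was 0.00714 without TGF-β and -0.000339 with it. In the other lists the lean varied. Without TGF-β, 5 of 6 ependymal, 6 of 8 oligodendrocyte lineage and 7 of 12 microglial markers were lower in WT. So were 4 of 5 endothelial and 3 of 5 neuronal markers. With TGF-β, 5 of 6 ependymal and 5 of 8 oligodendrocyte lineage markers were lower in WT. Higher in WT were then 9 of 12 microglial, 3 of 5 endothelial and 3 of 5 neuronal markers. The part of these cell types in the WT minus KO values of HYAL1 and VCAN was not tested.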

How the data were processed

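Per the labels, RNA was taken from 8 cultures, and the libraries were unstranded. The authors aligned reads to mm10 with STAR, per the submitters' processing notes, and deposited read counts per gene symbol, whole and not normalized. The authors also deposited FPKM values from Cufflinks, used here for levels per length and as an alternative. Neither the counting program nor tool versions are given in the sources used here. Deposited fold changes and p-values of TGF-β against control were not used.

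The main test was that of edgeR 4.0.16 in R 4.3.3 (filterByExpr, TMM, 1 quasi-likelihood fit of 4 group means to 8 libraries, no block). It made 5 comparisons: TGF-β against control within WT and within KO, their difference, and WT against KO at each treatment. P-values are two-sided, Benjamini-Hochberg adjusted over 13509 genes, and measure the spread between the replicates. A gene was past the threshold (rose or fell) where its log2 fold change reached 0.6 in size and its adjusted p was below 0.05. CPM are scaled to TMM totals, with a prior count of 2 on the log2 scale. The test was checked on simulated data. Depth was 14920561 to 18956038 counts, and for genes with few counts (HAPLN1, HAPLN4) intervals are wide.

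The members and lists were chosen with earlier results of these data known. Named genes are the 7 members, RGCC, listed hyaluronan genes past the threshold in either genotype, overlapping genes, and the 3 genes most correlated with a member that passed. TMEM2, CEMIP, CD44, LAYN, UGDH, UGP2, ACAN and the cell type markers were named after their values were seen. Positions and overlaps are from GENCODE M21 (GRCm38). Alternatives used DESeq2 1.42.0 and limma 3.58.1 (voom, or log2 of FPKM plus 0.1 or 1), other scalings, filters and thresholds, a replicate block, and each library left out in turn.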

Additional observations from a re-analysis of the deposited data

Results flagged for a closer look

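HAS1 and HAPLN3 lie outside the count table, and in the FPKM table each had all 4 TGF-β libraries above all 4 controls. For HAS1 the lowest TGF-β library was at 0.0488 FPKM, above the highest control at 0.0337. For HAPLN3 these were 0.246 and 0.244 FPKM. On log2(FPKM + 0.1) HAS1 passed in WT alone (1.09, adjusted p = 0.00862, limma) and HAPLN3 in neither genotype, in a table where libraries of the same replicate number share identical values.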

How the results depend on the processing

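HAS2 passed upward in both genotypes under all 22 alternatives, with log2 fold changes of 1.48 to 2.38 in WT and 1.36 to 1.93 in KO. HYAL1 lost its call on FPKM in WT (0.55 and 0.53 with pseudocounts of 0.1 and 1) and in KO (0.53 and 0.51), and in KO also with upper quartile scaling (0.60) and Bonferroni's correction (adjusted p = 0.0686), so of the 4 genes in the count table those past the threshold went from 2 to 1 in those settings. It stayed at 2 without each library in turn. The count of further hyaluronan genes went from 5 in WT to 3 with Bonferroni or FPKM + 0.1 and 12 with no fold limit, and from 8 in KO to 3 with Bonferroni or FPKM + 1, 5 with FPKM + 0.1 and 14 with no fold limit; with a library left out it was 4 to 6 in WT and 5 to 8 in KO, the 5 without the second KO TGF-β library. Some values changed sign. The difference between the responses of the genotypes did so for HAPLN1 (0.42 and 0.14 on FPKM, -0.84 to 0.38 with a library left out). In WT against KO without TGF-β, HAPLN1 did so too (-0.01488 and -0.007608 on FPKM, -0.17 to 1.06 with a library left out). With TGF-β it ranged from -0.36 to 0.69 with a library left out, so the direction for HAPLN1 was not settled. HAS2 changed sign in WT against KO without TGF-β (0.01137 and 0.009229 on FPKM, -0.34 to 0.10 with a library left out). HYAL2 did so with TGF-β (-0.002564 and -0.002432 on FPKM). The cause of these changes was not tested. FPKM + 0.1 moved the median of all genes to -0.11 in WT and -0.109 in KO and the share of calls that were upward to 38.5% and 37.1%, and upper quartile scaling moved that share to 44.8% and 45.5%. The labels do not say what a replicate number shares, and replicate differences correlated at -0.343 and -0.348 between the treatments of a genotype, at 0.491 (control) and 0.253 (TGF-β) between genotypes at the same treatment, and at -0.507 and -0.483 across both, so whether the numbers pair WT with KO is unclear and they are not shown to pair control with TGF-β; with the replicate block, 2 of the 4 genes passed in each genotype, and 5 and 7 of the further genes. With the numbers crossed in the TGF-β groups, chosen after seeing the data, 2 passed in each genotype, and 6 and 9 of the further genes. Over all genes, that crossed block called 25 up and 11 down for WT against KO with TGF-β, where the main fit called 6. Between the responses of the genotypes it called 0 up and 0 down, with 680 genes at an unadjusted p under 0.05 in edgeR. Of the 4 hyaluronan genes, 0 passed in these comparisons. Depth limits HAPLN1, at 11 to 43 counts a library.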
